A study of Mus musculus with 40 samples.

Results

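The hypoxia response genes described here are 10 genes of the mouse, chosen by name: *Hif1a*, *Epas1*, *Adm*, *Bnip3*, *Ndrg1*, *Egln3*, *Pfkfb3*, *Pdk1*, *Car9* and *Angptl4*. All 10 were found among the 54307 genes of the table, and all 10 passed the filter on low values in choroid and in retina. They were measured by RNA sequencing in both tissues of 20 mice, 5 mice per group, 3 days after 6 laser burns per eye had opened Bruch's membrane to provoke choroidal neovascularization (CNV). Every mouse carried floxed alleles of *Tgfbr2*, the type II receptor for TGFβ, on a C57BL/6J background, and every mouse received tamoxifen eye drops from an age of 6 to 7 weeks. The *Tgfbr2ΔEC* mice also carried Cdh5-CreERT2, a Cre recombinase that tamoxifen activates in endothelial cells, whereas the controls were littermates without it (CreNeg). A subset of each genotype ate a diet with PLX5622 (PLX), an inhibitor of the CSF1 receptor that removes mononuclear phagocytes, and the rest ate control food. The 4 groups are therefore control – PLX, *Tgfbr2ΔEC* – PLX, control + PLX and *Tgfbr2ΔEC* + PLX. Both sexes were used, choroids were taken as the central part with the lesions, and no mouse without laser burns was sequenced, so that the response to the laser itself is not measured here.

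Cells answer a shortage of oxygen mainly through the hypoxia-inducible factors (HIF). Their oxygen-sensitive subunits are encoded by *Hif1a* and *Epas1*, and prolyl hydroxylases, among them the product of *Egln3*, mark these subunits for destruction while oxygen is present. Oxygen acts on the protein of the subunits more than on their RNA, and the RNA of their target genes rises once the subunits persist. *Pfkfb3* and *Pdk1* steer glucose towards glycolysis and away from the mitochondria, *Bnip3* serves the removal of mitochondria, *Ndrg1* is a stress-induced cytoplasmic protein, *Adm* and *Angptl4* encode the secreted proteins adrenomedullin and angiopoietin-like 4, and *Car9* encodes a carbonic anhydrase at the cell surface that regulates pH. In the eye, photoreceptors use much oxygen, which reaches them largely from the vessels of the choroid.

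The values are the normalized counts deposited by the authors for both tissues. The paper states that retina and choroid were analysed apart after quantification. It does not say whether a common scaling covered both tissues, and the size of differences between the tissues depends on it. The libraries held about 21628874 to 28331348 reads in choroid and 21033887 to 30421581 in retina, estimated from the steps between low values. A level at or under 3 reads (a value of 2.7 to 3.57 in a choroid library and of 2.235 to 3.36 in a retina library) was treated as not told apart from 0, which covers counting error only. The level of *Tgfbr2* over the whole tissue did not check the genotype, since it ranged from 9836 to 10848.6 in control – PLX choroids and from 8729 to 11303.5 in *Tgfbr2ΔEC* – PLX choroids (limma adjusted p = 0.925), and with PLX from 9434 to 12801.4 and from 10816.7 to 11999.3. In retina it ranged from 163.7 to 292.9 in controls and from 107.4 to 284.9 in *Tgfbr2ΔEC* without PLX, and from 66.36 to 154.7 and from 91.47 to 140 with it. Only endothelial cells were targeted, and the part of other cells in this level was not tested. The paper itself reports successful deletion, by PCR and qPCR of choroidal tissue. Choroids carried reads of rods (summed level of 10 rod markers 4014 to 138483, against 1035428 to 1542446 in retina) and of skeletal muscle (14912 to 136720 for 6 markers, against 55 to 176 in retina). The control + PLX choroid of mouse 15 carried the most rod RNA of all choroids with PLX, and the control + PLX retina of mouse 11 correlated least with the other retinas. With PLX, 11 of 12 markers of mononuclear phagocytes fell in choroid (limma, adjusted p at or under 0.05), and their summed level went from 33644–41070 to 7996–12147. In retina 12 of 12 fell, from 1357–3473 to 41–149. Of the other marker lists in choroid, 5 of 8 endothelial, 2 of 6 mural and 1 of 5 fibroblast markers rose with PLX and 1 of 6 Müller glia markers fell, while none passed among those of rods, retinal pigment epithelium, pigment cells, skeletal muscle, neutrophils and erythroid cells. None of these lists held a gene that passed in retina with PLX, or with genotype in either tissue. Rod RNA was nevertheless uneven between the choroid groups: the rod score, the mean log2 level of 10 rod markers, ranged from 7.75 to 10.7 in control – PLX and from 11.4 to 12.9 in *Tgfbr2ΔEC* – PLX, without overlap. With PLX it ranged from 7.69 to 12.9 in controls and from 9.02 to 10.3 in *Tgfbr2ΔEC*, so that among *Tgfbr2ΔEC* choroids the diets did not overlap either.

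The stretch before the start of each gene was searched for the core of the HIF recognition motif, ACGTG or GCGTG, on both strands. A window of 300 bases before the start of the canonical transcript (GENCODE on GRCm39) held at least 1 core in 7 of the 10 genes, against 45.3% of 21537 protein-coding genes. The form ACGTG was present in 4 of the 10 (*Hif1a*, *Bnip3*, *Egln3* and *Angptl4*), against 19.8%. The windows of *Pfkfb3*, *Pdk1* and *Car9* held none, which says only that these letters are not in these windows. Shown are the genes that differed most between the tissues in each direction, *Angptl4* towards choroid and *Bnip3* towards retina, and the gene that changed with PLX in choroid, *Car9*. Each is printed 5′ to 3′ along its own strand, with the cores in capitals, so that CACGT and CACGC are cores read on the opposite strand.
Angptl4, chr17:34000805-34001104, minus strand: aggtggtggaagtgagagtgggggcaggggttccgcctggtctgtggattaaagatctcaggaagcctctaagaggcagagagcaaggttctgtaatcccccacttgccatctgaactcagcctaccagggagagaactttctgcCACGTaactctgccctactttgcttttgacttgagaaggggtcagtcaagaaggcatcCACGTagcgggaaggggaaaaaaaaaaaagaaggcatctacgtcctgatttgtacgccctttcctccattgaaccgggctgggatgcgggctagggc
Bnip3, chr7:138511254-138511553, minus strand: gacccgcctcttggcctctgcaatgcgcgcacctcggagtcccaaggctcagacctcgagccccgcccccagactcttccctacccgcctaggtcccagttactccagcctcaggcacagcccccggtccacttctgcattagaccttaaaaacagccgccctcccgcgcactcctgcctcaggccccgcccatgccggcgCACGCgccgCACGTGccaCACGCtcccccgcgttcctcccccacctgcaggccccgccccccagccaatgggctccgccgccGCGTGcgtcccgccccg
Car9, chr4:43506666-43506965, plus strand: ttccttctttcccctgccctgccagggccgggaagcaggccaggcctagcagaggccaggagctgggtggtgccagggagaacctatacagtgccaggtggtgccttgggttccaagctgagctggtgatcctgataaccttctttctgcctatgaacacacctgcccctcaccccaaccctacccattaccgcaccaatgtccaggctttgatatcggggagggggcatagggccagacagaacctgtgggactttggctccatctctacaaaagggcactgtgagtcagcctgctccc
*Angptl4* held 2 cores, both ACGTG on the opposite strand, beginning 155 and 97 bases before the start. *Bnip3* held 5 hits, of which 2 came from a single palindrome, CACGTG, that reads as ACGTG on either strand and overlaps itself. A match is a description of the letters and not a site shown to be bound.

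Set against each other per kilobase of exon, the 10 genes kept a different order in each tissue. In choroid *Epas1* led with 3083.3 ± 583 normalized counts per kilobase (mean ± SD, n = 20), and its range lay above that of every other member. *Ndrg1* (840 ± 215 per kilobase) and *Hif1a* (831 ± 104) came next with overlapping ranges, followed by *Angptl4* (418 ± 92.8) and *Adm* (300 ± 75.3). *Bnip3* (194 ± 43.1), *Pfkfb3* (183 ± 35.4), *Pdk1* (115 ± 17) and *Egln3* (87.5 ± 22.1) each overlapped their neighbours, while *Car9* (7.93 ± 6.11) lay below all of them. In retina *Hif1a* led with 1841.8 ± 226 per kilobase. *Epas1* (892 ± 270), *Bnip3* (783 ± 87.4) and *Ndrg1* (728 ± 115) overlapped one another, and the range of *Epas1* reached into that of *Hif1a*. A gap separated these from *Pdk1* (140 ± 22.5), *Pfkfb3* (108 ± 18.2) and *Egln3* (58 ± 12.1). *Adm* (9.75 ± 12.4), *Angptl4* (5.5 ± 2.8) and *Car9* (0.733 ± 1.55) formed the lowest levels in retina, with overlapping ranges, and *Adm* reached into the range of *Egln3* in a single mouse, mouse 17.

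**Figure D1:**
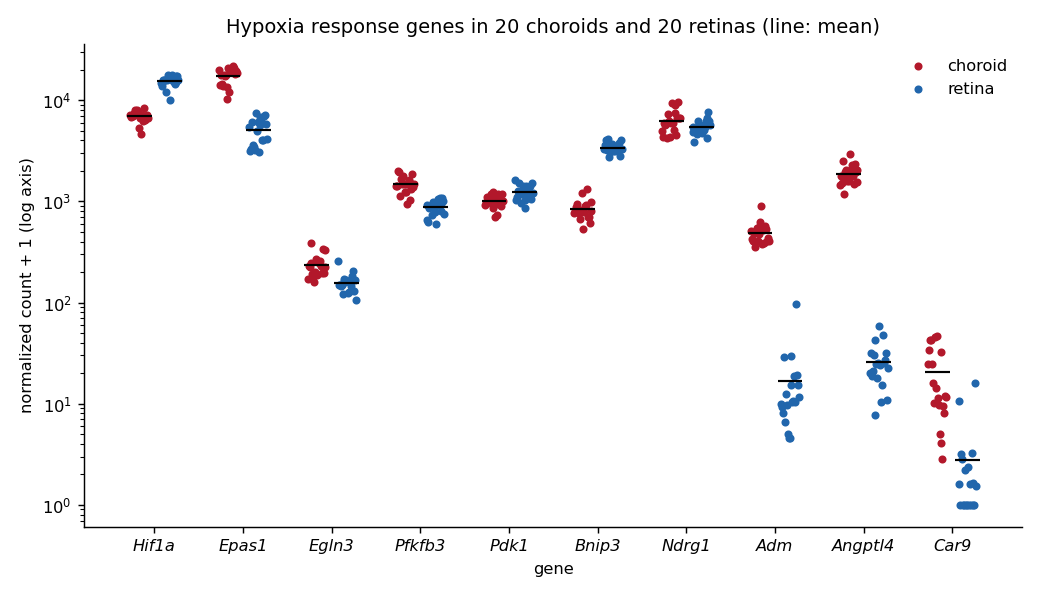
Normalized count + 1 on a log axis for each of the 10 genes in 20 choroids and 20 retinas; each point is a library and the line is the mean. *Adm* and *Angptl4* lie far higher in choroid (means 488.3 and 1878) than in retina (15.88 and 24.74), while *Hif1a* and *Bnip3* lie higher in retina.

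Between choroid and retina, 9 of the 10 genes differed (limma on log2(normalized count + 1), Benjamini-Hochberg adjusted p at or under 0.05, all 40 libraries in one fit). This share is near the background, since 82.0% of the 24317 genes tested also differed. The full ranges of the tissues did not overlap for 5 members, *Hif1a*, *Epas1*, *Adm*, *Bnip3* and *Angptl4*, against 33.6% of all genes. In whole tissue, fewer cells of a type and less RNA per cell cannot be told apart. The rod and muscle RNA in choroid stood beside every one of these differences, and its part in them was not tested.

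The HIF subunits pointed in opposite directions. *Hif1a* ranged from 9941 to 17691.8 normalized counts in retina (median 15670.4) and from 4648 to 8318 in choroid (median 7033). *Epas1* ranged from 10299.1 to 21793.8 in choroid (median 17978.8) and from 3093 to 7445 in retina (median 5194). Every retina was thus above every choroid for *Hif1a*, and every choroid above every retina for *Epas1*. The difference, choroid minus retina, was -1.15 ± 0.065 on the log2 scale for *Hif1a* (± SE, limma adjusted p = 8.5e-19) and 1.83 ± 0.115 for *Epas1* (limma adjusted p = 2.76e-17). *Egln3*, the hydroxylase, was modestly higher in choroid, 226.9 against 153.7 in the median and 0.58 ± 0.102 on the log2 scale (limma adjusted p = 3.12e-06), with overlapping ranges of 156.7 to 384.6 and 104.8 to 254.1.

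The secreted factors were the most tissue-biased members. *Angptl4*, an inhibitor of lipoprotein lipase, ranged from 1189 to 2961 in choroid and from 6.659 to 58.05 in retina, and its mean was 75.9-fold higher in choroid (6.32 ± 0.18 on the log2 scale, limma adjusted p = 3.27e-28). *Adm*, a vasodilator peptide, ranged from 351.8 to 901.9 in choroid and from 3.544 to 95.97 in retina, and its mean was 30.7-fold higher in choroid (5.28 ± 0.207, limma adjusted p = 9.53e-24). Both were detected in every retina, above the level of 3 reads. *Car9* was above 3 reads in 18 of 20 choroids and in 2 of 20 retinas. Those 2 retinas, mouse 2 (control – PLX) with 9.616 and mouse 19 (*Tgfbr2ΔEC* + PLX) with 14.98, stood apart from the other 18, which lay between 0 and 2.221. The difference of *Car9* was 3.05 ± 0.32 (limma adjusted p = 4.9e-11), but its size followed the pseudocount, from 1.7 with 5 added to 3.62 with 0.5 added.

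The metabolic members split. *Bnip3* was 4.04-fold higher in retina in the mean, 2756 to 4108 against 534.9 to 1331 in choroid (-2.04 ± 0.078 on the log2 scale, limma adjusted p = 4.16e-24). *Pdk1*, the kinase that shuts pyruvate dehydrogenase, was slightly lower in choroid (medians 1026 and 1212; -0.27 ± 0.073, limma adjusted p = 0.000817). *Pfkfb3*, which makes the activator of phosphofructokinase, was higher in choroid (medians 1475 and 897.1; 0.75 ± 0.087, limma adjusted p = 5.15e-10). *Ndrg1* ranged from 4188 to 9623 in choroid and from 3852 to 7598 in retina, and its difference of 0.18 ± 0.086 missed the threshold (limma adjusted p = 0.0536). Choroid and retina came from the same mice, and with the mouse as replicate block *Ndrg1* passed it (limma adjusted p = 0.0168), which brought the count to 10 of 10. It also passed on leaving out mouse 2, 6, 9, 12, 13 or 16 (limma adjusted p = 0.0266 to 0.0452). With libraries scaled to equal totals, the alternative that lowered it most, its difference lay at 0.056 (limma adjusted p = 0.534).

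Of the other genes of the pathway, the counts stand beside the 82.0% of all genes that differed. In glucose uptake and glycolysis 18 of 18 genes differed, 16 of them lower in choroid, with a median difference of -1.52 against -0.012 for all genes. Among 12 genes of oxygen sensing and HIF partners 7 differed (3 higher and 4 lower in choroid, median -0.06). Among 18 relatives and receptors of the members 17 differed (11 higher, 6 lower, median 0.48). Among 24 other HIF targets 21 differed (11 higher, 10 lower, median -0.02).

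With PLX in choroid, *Car9* was the only member that changed, and it fell. Over both genotypes 1 of 10 members passed the threshold, against 7.13% of 23619 genes in either direction and 5.06% lower. In control – PLX choroids *Car9* stood at 23.88, 33.08, 41.44, 41.63 and 23.45 normalized counts, and in control + PLX choroids at 10.4, 8.621, 3.988, 3.066 and 31.61. In *Tgfbr2ΔEC* – PLX choroids it stood at 15.13, 9.152, 44.11, 13.4 and 45.26, and in *Tgfbr2ΔEC* + PLX choroids at 1.809, 8.421, 7.167, 10.88 and 10.52. Among controls 4 of 5 mice with PLX were below every mouse without it, and mouse 15 was not. Among *Tgfbr2ΔEC* mice the groups overlapped through mouse 7, whose 9.152 lay below 2 of the 5 values with PLX. The mean went from 29.05 to 9.647, a difference of -1.64 ± 0.393 on the log2 scale (limma adjusted p = 0.0107).

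Within a genotype the fall of *Car9* did not pass across all genes (0 of 10 members, against 3.75% of all genes in controls and 4.06% in *Tgfbr2ΔEC*): -1.80 ± 0.555 in controls (limma adjusted p = 0.0867) and -1.48 ± 0.555 in *Tgfbr2ΔEC* (limma adjusted p = 0.167), with a two-sided exact permutation p of 0.0238 in each, the smallest possible being 0.00794. Without mouse 15 the control difference was -2.25 (limma adjusted p = 0.0153). The difference between the genotypes was 0.33 ± 0.786 (limma adjusted p = 0.993), and that between the tissues -1.69 ± 0.64 (limma adjusted p = 0.277). The value between the tissues is not read further, since *Car9* was at or under 3 reads in 18 of 20 retinas. Over both genotypes the call held on leaving out each mouse in turn (-1.86 to -1.45, limma adjusted p = 0.00161 to 0.0254). With the rod score as a covariate it was -1.51 (limma adjusted p = 0.0444), beside a rod score whose median went from 10.2 to 9.88 in controls and from 11.7 to 10.3 in *Tgfbr2ΔEC*. Within *Tgfbr2ΔEC* the same covariate took the difference to -1.21 (limma adjusted p = 0.62), and within controls to -1.82 (limma adjusted p = 0.0892). The markers of mononuclear phagocytes fell in the same libraries, none of them was at 0 in all, and their part in the level of *Car9* was not tested. The counts are low, with 2 choroids at or under 3 reads.

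**Figure D2:**
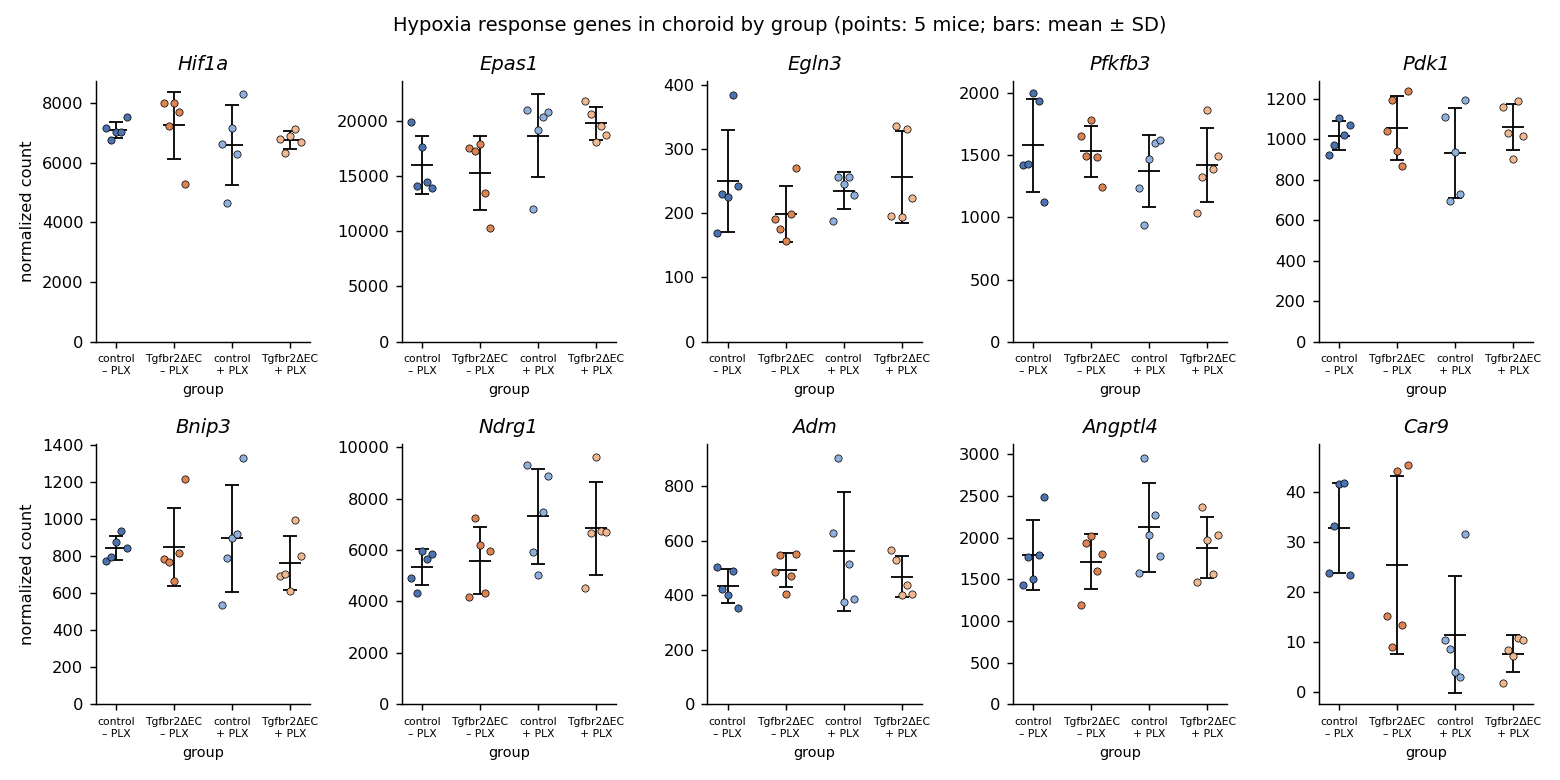
Normalized counts of the 10 genes in choroid by group; points are mice (5 per group) and bars are mean ± SD on linear axes that include 0. The mean of *Car9* is lower with PLX in both genotypes, with overlap through mouse 15 (31.61, with PLX) and mouse 7 (9.152, without), while the groups of *Hif1a*, *Pdk1* and *Bnip3* overlap throughout.

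The HIF subunits did not pass with PLX in choroid. *Epas1* stood at 17537.9, 17266.1, 17856.1, 13413.7 and 10299.1 in *Tgfbr2ΔEC* – PLX and at 21793.8, 20599, 18101.5, 19555.1 and 18695.4 in *Tgfbr2ΔEC* + PLX. These groups did not overlap (exact permutation p = 0.00794, the smallest the design allows). *Epas1* was 1 of 10 members for which they did not, against 6.52% of all genes, and across all genes the difference of 0.40 ± 0.163 did not pass (limma adjusted p = 0.214). In controls *Epas1* stood at 19904.7, 14107.3, 17571.2, 14448.7 and 13925.6 without PLX and at 20992.8, 11997, 19169.2, 20372.3 and 20746.3 with it. Mouse 12 was the lowest of all control choroids and the other 4 with PLX lay above 4 of the 5 without. Over both genotypes the difference was 0.30 ± 0.115 (limma adjusted p = 0.134), and 0.38 (limma adjusted p = 0.016) without mouse 12. Endothelial markers, whose cell type is known for strong *Epas1* expression, moved alongside: 5 of 8 rose with PLX in choroid with a median of 0.23. The rod score moved as well, and in *Tgfbr2ΔEC* it separated the same groups, from 11.4–12.9 without PLX to 9.02–10.3 with it. With that score as covariate *Epas1* differed by 0.29 over both genotypes (limma adjusted p = 0.261). This pooled value does not cover the separation within *Tgfbr2ΔEC*, for which no value with the covariate is given. The part of the endothelial markers was not tested. *Hif1a* differed by -0.11 ± 0.088 (limma adjusted p = 0.576).

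The remaining members stayed short of the threshold in choroid as well. *Ndrg1* had the next largest value, 5469 to 7085 in the mean and 0.36 ± 0.138 on the log2 scale (limma adjusted p = 0.145). It was 0.42 ± 0.195 in controls, where mice 11, 14 and 15 with PLX stood at 9305, 7472 and 8881, above the highest control – PLX value of 5979, and 0.29 ± 0.195 in *Tgfbr2ΔEC*, where mouse 18 stood at 9623. The secreted *Angptl4* (0.19 ± 0.13) and *Adm* (0.11 ± 0.135), the hydroxylase *Egln3* (0.15 ± 0.147), *Pfkfb3* (-0.16 ± 0.125), *Pdk1* (-0.07 ± 0.098) and *Bnip3* (-0.06 ± 0.134) had differences of mixed sign with limma adjusted p between 0.479 and 0.864. The median over the 10 members was 0.03, against 0.001 for all genes, with 5 differences above 0 and 5 below.

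Around the members, 11 further genes of the pathway changed with PLX in choroid over both genotypes, where 7.13% of all genes did. The fall of the phagocyte markers and the shift of the rod score stood beside these changes, and the part of the former was not tested. In glucose uptake and glycolysis 5 of 18 changed, 1 higher and 4 lower. *Slc2a1*, the glucose transporter GLUT1, rose by 0.32 ± 0.087 on the log2 scale (limma adjusted p = 0.0277). Phosphoglycerate mutase *Pgam1* (-0.29 ± 0.074, limma adjusted p = 0.0179), pyruvate kinase *Pkm* (-0.22 ± 0.066, limma adjusted p = 0.0418) and lactate dehydrogenase *Ldha* (-0.37 ± 0.111, limma adjusted p = 0.0463) fell. Among the relatives of the members 1 of 18 changed, *Pfkfb4*, a sister enzyme of *Pfkfb3*. It fell from a mean of 581.3 to 363.1 with no overlap between the diets, as for 1.8% of all genes (-0.67 ± 0.107, limma adjusted p = 0.000191). *Pfkfb4* passed within controls (limma adjusted p = 0.0136, and 0.052 with only the compared groups in the fit) and within *Tgfbr2ΔEC* (limma adjusted p = 0.00896, and 0.11 with the rod score as covariate, where the difference was -0.62 against -0.69). It was also the only one of these genes whose effect differed between the tissues, at -0.69 ± 0.148 (limma adjusted p = 0.00538; 1.37% of all genes passed), its value in retina being 0.02 ± 0.102.

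Of the HIF partners 1 of 12 changed, *Hif3a*, a further subunit that can restrain the others, which rose from a mean of 126.5 to 291.9 (1.23 ± 0.29, limma adjusted p = 0.00934). In controls it rose by 1.81 ± 0.41 without overlap, as for 4.21% of all genes (52.09 to 143.7 against 237.6 to 521.9, limma adjusted p = 0.0113), whereas in *Tgfbr2ΔEC* it was 0.66 ± 0.41 (limma adjusted p = 0.501). The interaction passed for no gene. Among 24 other HIF targets 4 changed. *Hmox1*, which breaks down haem, fell from 2941 to 1269 with no overlap between the diets (-1.20 ± 0.151, limma adjusted p = 9.38e-06), and the collagen-modifying *Plod1* fell by 0.21 on the log2 scale (± 0.06, limma adjusted p = 0.036). *Vegfa*, the endothelial growth factor, rose by 0.30 ± 0.089 (limma adjusted p = 0.0426) and the secreted stanniocalcin *Stc1* by 0.54 ± 0.116 (limma adjusted p = 0.00463). The calls of *Slc2a1*, *Pkm*, *Ldha*, *Vegfa* and *Plod1* were lost on leaving out 9, 13, 13, 14 and 12 of the 20 mice in turn (highest limma adjusted p = 0.0926), while those of *Hmox1*, *Pfkfb4*, *Stc1*, *Hif3a* and *Pgam1* held in all 20. With the rod score as covariate 6 of these genes missed the threshold while their differences kept their sign and most of their size: *Hif3a* (1.05, limma adjusted p = 0.0514), *Slc2a1* (0.28, 0.116), *Pgam1* (-0.25, 0.0833), *Pkm* (-0.16, 0.202), *Ldha* (-0.29, 0.188) and *Vegfa* (0.27, 0.135). With a sex score as covariate the differences of *Pkm* (-0.23, limma adjusted p = 0.0504), *Ldha* (-0.37, 0.0558) and *Plod1* (-0.21, 0.0501) hardly moved and fell just short of the threshold.

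**Figure D3:**
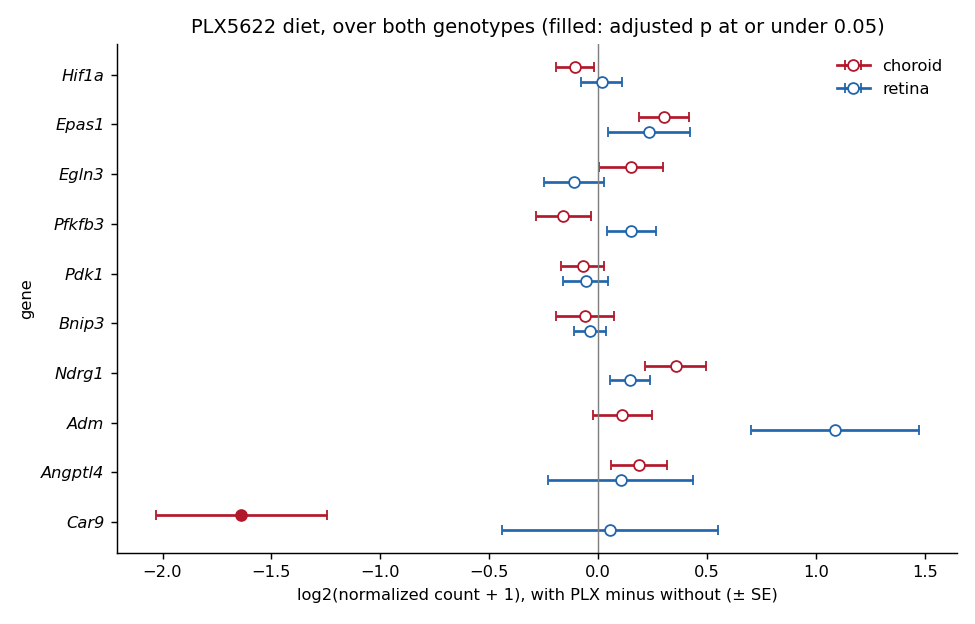
Difference of log2(normalized count + 1), with PLX minus without, over both genotypes, in choroid and retina; points are limma estimates, bars are ± SE, and a filled point passed an adjusted p of 0.05. *Car9* in choroid (-1.64) is the only filled point, and *Adm* in retina (1.09) is the largest open one.

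In retina none of the 10 members changed with PLX (limma, 0 at an adjusted p of 0.05 and 1 at an unadjusted p under 0.05), where 1.09% of 23243 genes passed. Within controls and within *Tgfbr2ΔEC* the count was also 0 of 10, against 0.736% and 0.516% of all genes. The 1 member was *Adm*. It stood at 8.984, 8.216, 7.057, 28.03 and 5.635 in control – PLX and at 14.36, 28.7, 9.439, 9.626 and 17.71 in control + PLX. In *Tgfbr2ΔEC* – PLX it stood at 11.43, 8.632, 3.995, 3.544 and 3.581, and in *Tgfbr2ΔEC* + PLX at 9.484, 95.97, 18.22, 14.37 and 10.66. A single retina, mouse 17, was far above the rest, and in both genotypes the diets overlapped. The difference was 1.09 ± 0.387 on the log2 scale (limma adjusted p = 0.406), and 0.81 to 1.27 on leaving out each mouse in turn. The other 9 members lay between -0.11 (*Egln3*) and 0.23 (*Epas1*) with limma adjusted p of 0.968 or more. None of the 4 further lists held a gene that passed in retina, with 3 genes of the lists at an unadjusted p under 0.05.

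**Figure D4:**
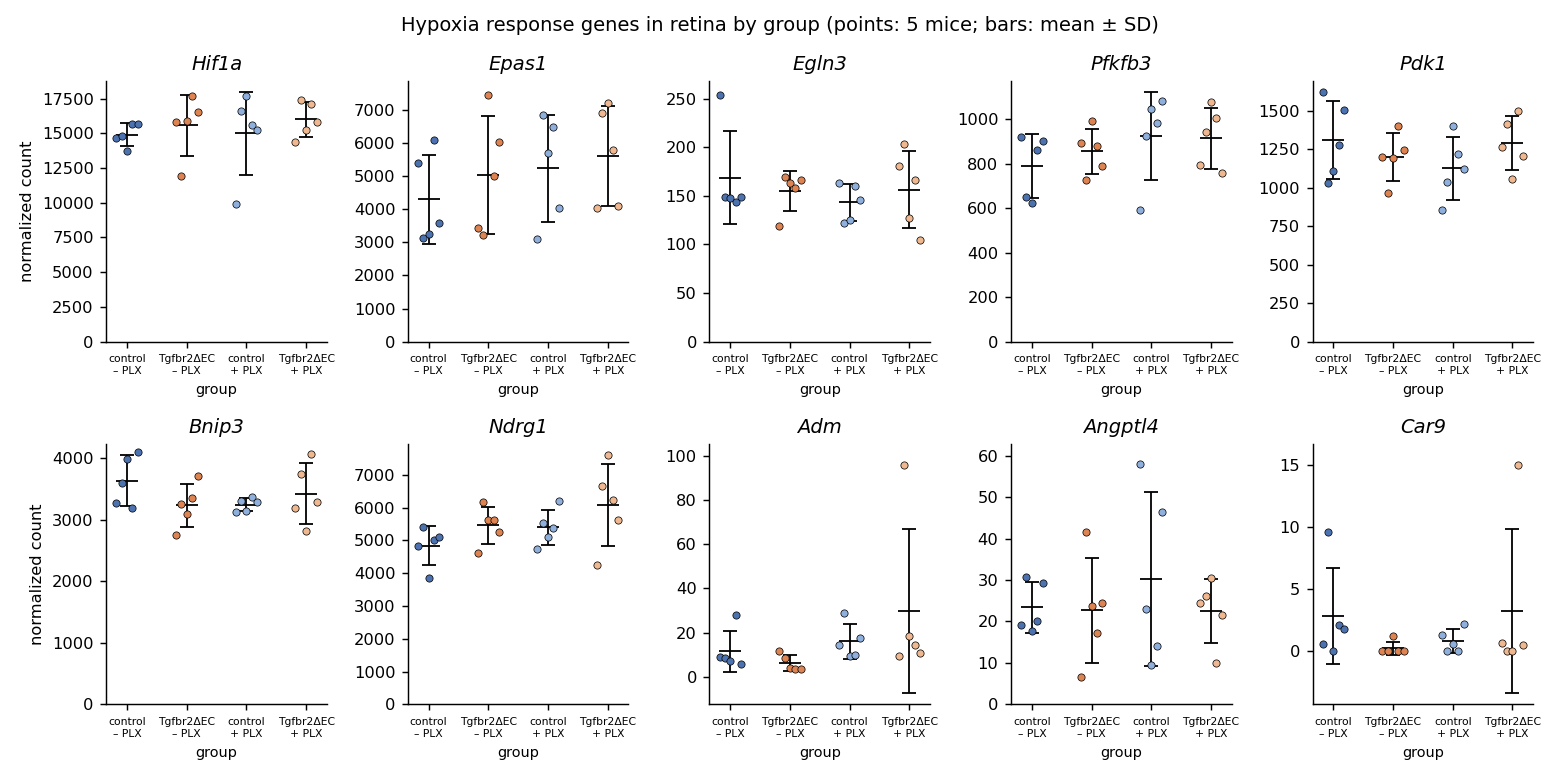
Normalized counts of the 10 genes in retina by group; points are mice (5 per group) and bars are mean ± SD on linear axes that include 0. All groups overlap, with single high retinas for *Adm* (mouse 17, 95.97), *Egln3* (mouse 1, 254.1) and *Car9* (mouse 19, 14.98).

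None of the 10 members passed the threshold with deletion of *Tgfbr2* in endothelial cells. Almost no gene of either tissue did, so these counts do not set the members apart. Nor do they show that the members stayed unchanged. In choroid limma passed 0 of 10 without PLX and 0 of 10 with it, with 0 at an unadjusted p under 0.05 in either, where 0.00423% of all genes passed in each diet. In retina the counts were also 0 of 10 at both levels, against 0.0% of all genes. Over both diets 0 of 10 passed in either tissue, against 0.00847% of all genes in choroid. Without PLX the rod score separated the genotypes in choroid (7.75 to 10.7 in controls, 11.4 to 12.9 in *Tgfbr2ΔEC*), and with that score as covariate the count in choroid was still 0 of 10. Over both diets the differences in choroid, *Tgfbr2ΔEC* minus control, ran from -0.42 ± 0.393 (*Car9*) to 0.13 ± 0.098 (*Pdk1*), and in retina, leaving out *Car9*, from -0.20 ± 0.334 (*Angptl4*) to 0.16 ± 0.093 (*Ndrg1*). *Car9* was at or under 3 reads in 18 of 20 retinas, so its differences there are not read. Within a diet they ran in choroid from -0.59 ± 0.555 (*Car9*) to 0.18 ± 0.191 (*Adm*) without PLX and from -0.26 ± 0.555 (*Car9*) to 0.21 ± 0.139 (*Pdk1*) with it. In retina they ran from -0.70 ± 0.548 (*Adm*) to 0.21 ± 0.265 (*Epas1*) without PLX and from -0.19 ± 0.472 (*Angptl4*) to 0.38 ± 0.548 (*Adm*) with it. Over both diets the subunits differed little in choroid, 0.04 ± 0.088 for *Hif1a* and 0.01 ± 0.115 for *Epas1*. The interaction of genotype and PLX passed for 0 of 10 members in either tissue, with 0 at an unadjusted p under 0.05 and 0.0% of all genes. The largest interaction among the members of choroid was that of *Egln3*, 0.39 ± 0.294 (limma adjusted p = 0.968). In retina, again leaving out *Car9*, it was that of *Adm*, 1.08 ± 0.775 (limma adjusted p = 1.0).

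Relations among the members and with marker scores, from mouse to mouse, were taken after subtracting each group's mean, over 20 libraries per tissue, and 130 were computed in all. In each relation the 2 outermost libraries are those farthest from the median of the variable named second. A library extreme only in the variable named first was not left out. In choroid *Egln3* followed the skeletal muscle score, the mean log2 level of 6 muscle genes (Pearson r = 0.72, permutation p = 0.00046, adjusted 0.0416; Spearman rho = 0.75, permutation p = 0.00059, adjusted 0.0767), with r = 0.8 without the 2 outermost libraries. *Bnip3* had r = 0.66 with the same score (permutation p = 0.00438, adjusted 0.0819; rho = 0.62, permutation p = 0.00621, adjusted 0.161; r = 0.57 without the 2 outermost). *Bnip3* and *Egln3* had r = 0.57 with each other (permutation p = 0.00191, adjusted 0.0621; rho = 0.65, permutation p = 0.00313, adjusted 0.136; r = 0.5 without the 2 outermost). Muscle markers did not change with PLX in choroid (0 of 6).

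**Figure D5:**
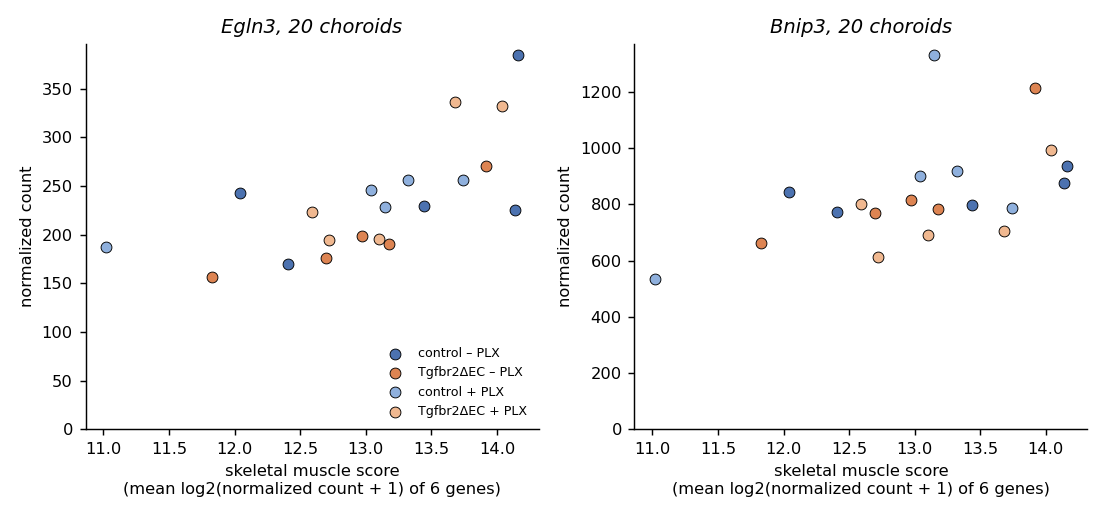
Normalized counts of *Egln3* and *Bnip3* against the skeletal muscle score in 20 choroids, coloured by group; each point is a library and the score averages 6 muscle genes on the log2 scale after adding 1. The choroid with the highest score (mouse 4) also holds the highest *Egln3* (384.6), and the relation is looser for *Bnip3*, where mouse 15 (1331) stands above the rest.

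In retina *Hif1a* followed *Pdk1* (r = 0.71, permutation p = 0.00064, adjusted 0.0416; rho = 0.68, permutation p = 0.00157, adjusted 0.102; r = 0.59 without the 2 outermost). Both genes also ran against the rod score there, *Hif1a* with r = -0.54 (permutation p = 0.0369, adjusted 0.218; rho = -0.22, permutation p = 0.358, adjusted 0.751; r = -0.47 without the 2 outermost) and *Pdk1* with r = -0.63 (permutation p = 0.01, adjusted 0.1; rho = -0.49, permutation p = 0.0552, adjusted 0.385; r = -0.47). *Pdk1* ran against the muscle score as well (r = -0.67, permutation p = 0.0048, adjusted 0.0819; rho = -0.68, permutation p = 0.00429, adjusted 0.139; r = -0.65 without the 2 outermost). *Pfkfb3* ran with *Hif1a* (r = 0.71, rho = 0.33), *Epas1* (0.67, 0.6) and *Pdk1* (0.67, 0.56), and against the rod score (-0.66, -0.58). For each of these the adjusted permutation p was 0.0819 for r and at least 0.23 for rho. *Angptl4* ran with the rod score (r = 0.6, adjusted permutation p = 0.0998). The part of rod or muscle RNA in the relations among these genes was not tested. Only the relation of *Hif1a* with *Pdk1* and that of *Egln3* with muscle had an adjusted p of r under 0.05, and neither had one of rho. *Hif1a* and *Epas1* had r = 0.73 in choroid (permutation p = 0.0214, adjusted 0.163; rho = 0.46, permutation p = 0.067, adjusted 0.415), which fell to r = 0.23 without the 2 outermost libraries and so rests on them. In retina the same genes had r = 0.62 (permutation p = 0.00603, adjusted 0.0819; rho = 0.51, permutation p = 0.0341, adjusted 0.277; r = 0.41 without the 2 outermost). *Hif1a* ran against *Adm* in choroid (r = -0.74, permutation p = 0.00152, adjusted 0.0621; rho = -0.58, permutation p = 0.016, adjusted 0.23; r = -0.57 without the 2 outermost), mouse 12 having the lowest *Hif1a* (4648) and the highest *Adm* (901.9).

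For each member, the genes with the most similar pattern over the 20 libraries of a tissue were named by Pearson r of log2 levels, as a description. In choroid these were *Anxa11* (r = 0.85) and *Tuba4a* (0.82) for *Egln3*, *Ttc39b* (0.91) and *Purb* (0.89) for *Hif1a*, *Clmn* (0.91) and *Pja2* (0.87) for *Epas1*, and *Cdkn1c* (0.89) and *Ldaf1* (0.83) for *Adm*. For *Car9* they were *Pira13* (0.81) and *Itsn1* (0.8), for *Angptl4* *Yipf3* (0.84) and *Loxl1* (0.79), and for *Ndrg1* *Cyth3* and *Hrk* (0.83 each). For *Pfkfb3* they were *Gm37233* (0.84) and *Kif26b* (0.82), and for *Bnip3* *Neurl1a* (0.78) and *Camk2b* (0.76). *Pdk1* was the member least matched in choroid (*Rasef* and *Odf2l*, 0.7 each). In retina the closest patterns were those of *Trim44* and *Gpalpp1* for *Hif1a* (0.96 each), *Hivep2* (0.94) and *Flrt1* (0.9) for *Pfkfb3*, *Ndst4* (0.87) and *Gm44792* (0.84) for *Epas1*, and *Eif2ak2* (0.86) and *Kctd12b* (0.8) for *Pdk1*. They were *Dagla* (0.84) and *Sik3* (0.81) for *Ndrg1*, *Wdr1* (0.84) and *Artn* (0.76) for *Egln3*, and *U2af1l4* (0.84) and *Ccar2* (0.83) for *Angptl4*. *Bnip3* (*Tm2d1* 0.78, *Snx4* 0.73) and *Adm* (*Tbcel* 0.71, *Fzd8* 0.69) were matched less closely, and *Car9* was too low in retina to be compared. Libraries of a tissue share depth, rod and muscle RNA, so that such values describe these samples.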

How the data were processed

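RNA of choroid and retina from 20 mice was analysed as 40 libraries in 8 groups, with genotype, diet and mouse taken from the labels. Per the paper's methods, the authors checked reads with FastQC 0.11.5, quantified them with Salmon 1.10.1 against GRCm39 (GENCODE M29) and normalized them with DESeq2 1.36.0. The deposited signal per gene is this normalized count, which is not a whole number: low values came within 0.1 of an integer number of reads in 51.3% to 80.6% of cases, depending on the library. Read counts could therefore not be rebuilt, and depth is approximate. The authors' covariates (sex and an estimate of neuronal cells) were not used here.

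Symbols came from GENCODE M39 on GRCm39 (53700 of 54307 genes matched), lengths from the sum of exon bases. limma 3.58.1 (R 4.3.3) with a mean-variance trend was fitted to log2(normalized count + 1) of genes with a mean of at least 1, for 4 groups of a tissue (23619 genes in choroid, 23243 in retina) or all 8 groups (24317). Adjusted p at or under 0.05 was called. Adding 1 makes differences of weakly expressed genes too small. Data were simulated for the PLX effect over both genotypes in choroid only (23186 genes). Of 200 genes changed by 1 on the log2 scale, 158 were called (79%), and so were 11 unchanged ones. This share was not worked out apart for weakly expressed genes. No other comparison was simulated, so the share does not carry over to genotype, to interaction, to retina or to PLX within a genotype. Single members were compared by two-sided exact permutation tests over 252 relabellings, correlations by 100000 permutations (Python 3.11.15, numpy 2.4.6, pandas 2.3.3, scipy 1.17.1). Choroid and retina of a mouse share the number in the library name. Their deviations from group means correlated at -0.197 to 0.354 (median 0.181, 14 of 20 over 0.1, 15687 genes), and the mouse as replicate block was an alternative.

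The members, the 4 pathway lists (oxygen sensing and HIF partners, glucose uptake and glycolysis, relatives and receptors, other HIF targets) and the marker lists of 11 cell types were chosen with earlier results of these data known. Named are all members, the 3 called genes with the lowest p per list, direction and comparison within a tissue, and the 2 most similar genes per member and tissue. Alternatives were pseudocounts of 0.5 and 5, a minimum mean of 10 or none, equal totals or median-of-ratios scaling, robust variance estimates, rod and sex scores as covariates, fits of the groups compared alone, and leaving out each mouse.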

Additional observations from a re-analysis of the deposited data

Results flagged for a closer look

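Dixon's ratio is the gap of a mouse to the nearest other, divided by the range of its group of 5 mice. If values were normal and groups independent, about 4 of 80 groups (10 genes in 8 groups) would exceed the critical value of 0.71 by chance. Genes share libraries and values near 0 are skewed, so that number is only a rough guide. Of the 80 groups, 11 held a mouse that exceeded the critical value. In choroid these were *Hif1a* in *Tgfbr2ΔEC* – PLX mouse 10 (5294 against 7239 to 8021, ratio 0.713), *Bnip3* in the same library (1213 against 663.8 to 816.6, ratio 0.722), *Epas1* in control + PLX mouse 12 (11997 against 19169.2 to 20992.8, ratio 0.797) and *Car9* in control + PLX mouse 15 (31.61 against 3.066 to 10.4, ratio 0.743). In retina they were *Adm* in control – PLX mouse 4 (28.03 against 5.635 to 8.984, ratio 0.85) and in *Tgfbr2ΔEC* + PLX mouse 17 (95.97 against 9.484 to 18.22, ratio 0.899). *Egln3* stood apart in control – PLX mouse 1 (254.1 against 143.4 to 149.1, ratio 0.948) and in *Tgfbr2ΔEC* – PLX mouse 6 (119.5 against 158.4 to 169.9, ratio 0.771). *Car9* stood apart in retina in control – PLX mouse 2 (9.616 against 0 to 2.165, ratio 0.775), in *Tgfbr2ΔEC* + PLX mouse 19 (14.98 against 0 to 0.6443, ratio 0.957) and in *Tgfbr2ΔEC* – PLX mouse 8 (1.206 against 0, ratio 1.0), the last of these being under 3 reads.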

How the results depend on the processing

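None of the differences recomputed under the alternatives changed direction. They covered every member between the tissues and, for PLX, *Car9*, *Epas1* and *Ndrg1* in choroid, *Adm* in retina and the named genes of the other lists, while genotype, interaction and the remaining PLX differences were recomputed as counts of members passed, which stayed at 0 for genotype and interaction. The number of members that passed with PLX in choroid was 0 in controls and 1 over both genotypes. On leaving out each mouse in turn it was 0 to 1 in controls, with *Car9* passing without mouse 15 (-2.25, limma adjusted p = 0.0153), and 1 to 2 over both genotypes, with *Epas1* passing without mouse 12 (0.38, limma adjusted p = 0.016). With the mouse as replicate block, *Ndrg1* passed between the tissues (limma adjusted p = 0.0168), and the pairing changed no other call of a member. Single genes kept their side of the threshold in 946 alternatives, lost it in 87 and gained it in 9, the cause of which was not tested. Depth limits *Car9*, with 18 of 20 retinas and 2 of 20 choroids at or under 3 reads, and *Adm* in retina (lowest value 3.544).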
